A study of Macaca mulatta with 81 samples.

Results

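Expression of 6 genes that regulate type 1 helper (Th1) and effector CD8 T cells was followed in blood T cells of rhesus macaques after haematopoietic cell transplantation. The genes were IFNG, TBX21, EOMES, PRDM1, IL12RB2 and IL18RAP, 6 of the 14132 genes that a probe set of the array named without ambiguity. They were chosen by name, and each was read from the probe set with the highest mean over the 81 arrays among those that the gene table assigned to that gene alone. The 6 genes had 12 such probe sets, 4 for IL12RB2, 3 for PRDM1, 2 for EOMES and 1 for each of the others. All 6 passed the filter on dim signals and were tested among 11806 genes.

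In T cells, the cytokines IL-12 and IL-18, made by antigen-presenting cells, act through receptors whose signalling subunits are encoded by IL12RB2 and IL18RAP, and drive production of interferon gamma, the product of IFNG. TBX21 (T-bet) and EOMES (eomesodermin) are related T-box transcription factors that establish the Th1 and cytotoxic programmes, and T-bet is known to raise transcription of IFNG and IL12RB2. PRDM1 (Blimp-1) is a transcriptional repressor of terminally differentiated effector T cells. After allogeneic transplantation, donor T cells of this kind can attack host tissue, the condition called graft-versus-host disease, which the prophylaxis in this study was given to prevent.

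The 81 arrays came from CD3-positive T cells that had been sorted from blood of 50 animals, and 11 of these animals were sampled both in health and after transplantation. Allogeneic recipients without prophylaxis formed the group NoRx.F (4 arrays), where F marks the final sample, whose day the labels do not give. Allogeneic recipients under prophylaxis were labelled Siro.F (4), Tac.Mtx.D14, Tac.Mtx.D30 and Tac.Mtx.F (3, 2 and 3), Bela.F (3), Bela.Siro.D14, Bela.Siro.D30 and Bela.Siro.F (3, 3 and 2), FR104.D14 and FR104.F (3 and 3), and FR104.Siro.D14 and FR104.Siro.F (4 and 4). The labels do not spell out these abbreviated agents, and D14 and D30 stand for the day after transplantation. The 4 FR104.Siro.D14 arrays were from day 14 for animals 26 and 28, day 22 for animal 29 and day 34 for animal 27, and 1 Bela.Siro.D30 array was from day 29. Autologous recipients, which received their own cells and no prophylaxis, formed Auto.D14 (3) and Auto.D36 (3). The 34 Healthy.Control arrays were from untransplanted animals.

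The deposited values are log2 signals, so a difference of 1 is a doubling of signal, and their spread within a group is given as SD. With so few arrays in a group, their number limits the precision of each comparison, and in sorted bulk cells a smaller share of expressing cells and less RNA per cell cannot be told apart. Where groups are said not to overlap, the share of all genes or probe sets without overlap was not counted. Of the markers of the sort, the CD3 chain genes were not named by the gene table used here. The 5 T cell markers with a probe set (CD5, CD6, CD4, CD8A and CD8B) averaged 6.73 to 12.34 in healthy controls, the 7 NK cell markers 5.52 to 11.21, the 7 B and plasma cell markers 2.87 to 6.80 and the 7 monocyte markers 5.36 to 7.66. These are signals of different probes, whose levels cannot be set against each other, so they do not measure the purity of the sort. The array spike-in controls were brighter than on every healthy array in 8 arrays, among them all 4 of FR104.Siro.D14. NoRx.F was run in batches 1 and 2 and shares a batch with Siro.F but with none of the other prophylaxis groups, so that comparisons of those with NoRx.F rest on the batch term of the fit, and comparisons made against the same 34 healthy arrays, the same 4 of NoRx.F or the same 3 of Auto.D14 depend on each other.

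Across the 16 groups, on the probe sets used, 5 of the 6 genes varied and PRDM1 did not pass the test. The moderated F test of limma gave an adjusted p of 7.32e-06 for TBX21, 0.000165 for IL12RB2, 0.000247 for IFNG, 0.000331 for IL18RAP, 0.000465 for EOMES and 0.133 for PRDM1. By the same test 51.9% of all genes varied, and the 5 of 6 stand beside that share.

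Against healthy controls, on the probe sets used, the 6 genes did not move as a unit, and different members were called in different arms. In NoRx.F 1 of the 6 rose, where 35.4% of all genes were called in either direction, the measure used for each background share. In Siro.F 3 rose (14.6% of all genes called), and in Bela.F 3 rose and 1 fell (17.6%). In Tac.Mtx.F 1 rose (14.1%), in Bela.Siro.D30 1 rose and 1 fell (7.17%), and in Bela.Siro.F 1 fell (2.84%). The falls in Bela.F and Bela.Siro.D30 were of IL12RB2, whose probe sets disagreed, as described below. In FR104.Siro.D14 and in FR104.Siro.F the same 2 genes, TBX21 and EOMES, fell, against 18.2% and 10.1% of all genes called. No member passed in limma in Tac.Mtx.D14 (1.47% of all genes called), Tac.Mtx.D30 (3.46%), Bela.Siro.D14 (2.52%), FR104.D14 (5.39%), FR104.F (10.7%), Auto.D14 (4.4%) or Auto.D36 (16.7%). At an unadjusted p under 0.05 these 7 comparisons held 0, 1, 2, 0, 0, 1 and 3 members, in that order.

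**Figure D1:**
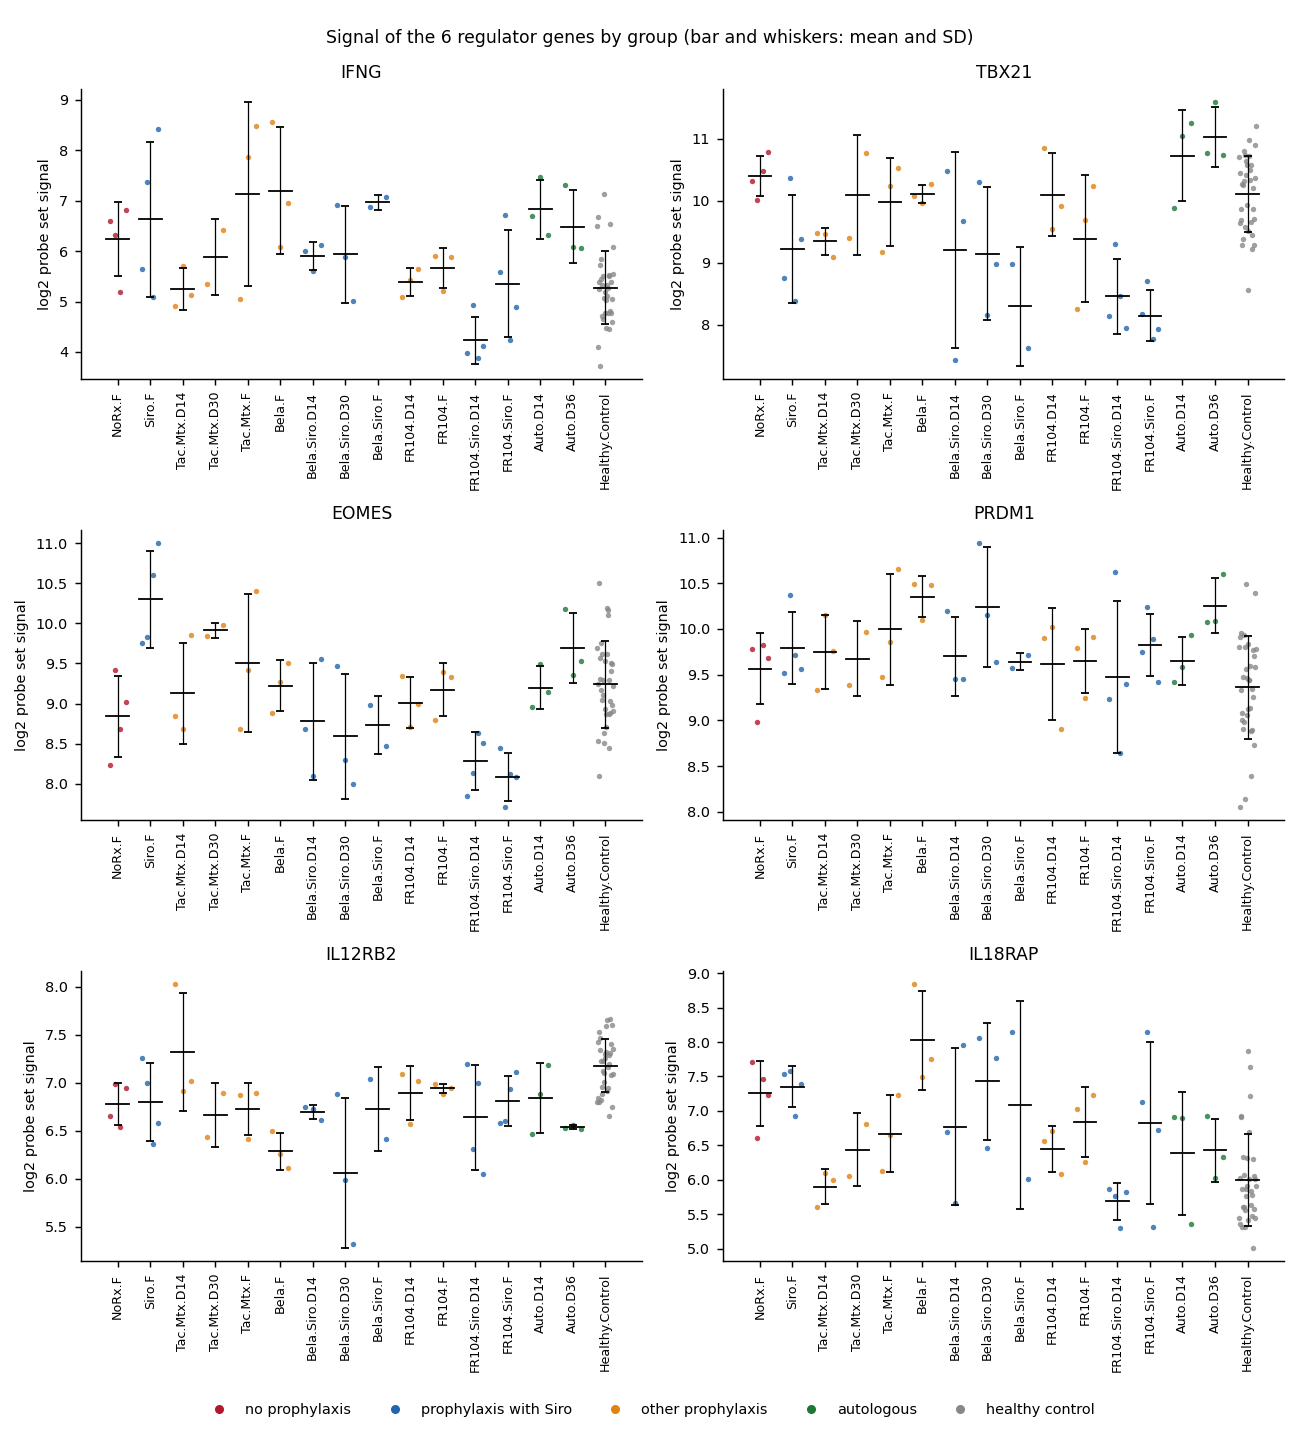
Log2 probe set signal of the 6 genes on each of the 81 arrays (points), by group, with the group mean and SD as bar and whiskers. TBX21 was lowest in the groups that received Siro with FR104 or Bela, with means from 8.15 to 9.20, EOMES was highest in Siro.F (mean 10.30), and the 4 IFNG values of FR104.Siro.D14 were from 3.89 to 4.92.

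The receptor gene IL12RB2 depended on which of its probe sets was read. This gene encodes the subunit that makes the IL-12 receptor signal and is known to be induced on activated Th1 cells. The probe set used by the rule (MmuSTS.62.1.S1_at) averaged 6.91 over all arrays, the next (MmugDNA.14229.1.S1_at) 6.81, the third (MmugDNA.20333.1.S1_at) 6.56 and the fourth (MmugDNA.39885.1.S1_at) 6.08. The means are close, so the choice by mean rests on small differences. Over the 81 arrays the set used correlated with the fourth at r = 0.81, with the next at r = 0.28 and with the third at r = -0.22, a description over arrays that share groups.

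On the probe set used, the signal was lower in several transplant groups. It read 6.65, 6.99, 6.54 and 6.94 in NoRx.F, against 6.65, 7.21 and 7.66 as lowest, median and highest of the healthy controls. These groups overlapped, and the change of -0.39 ± 0.20 (SE) had an adjusted p of 0.126. Bela.F read 6.49, 6.26 and 6.11, below every healthy array, and the signal fell by 0.90 ± 0.21 on the log2 scale (adjusted p = 0.00147). With the 4 probe sets averaged that fall was not seen, and the third probe set was higher in Bela.F than in healthy controls. Bela.Siro.D30 read 6.88, 5.99 and 5.32, and fell by 1.13 ± 0.21 (adjusted p = 0.00031), a call that was lost without animal 49 (-0.76, adjusted p = 0.0879) and with the 4 probe sets averaged (-0.41, adjusted p = 0.133). Auto.D36 read 6.53, 6.56 and 6.52, also below every healthy array, with a change of -0.61 ± 0.24 that did not pass (adjusted p = 0.067). Against their own healthy arrays these 3 animals were lower by less, with differences of -0.27, -0.24 and -0.32. In FR104.Siro.D14 the change of -0.50 ± 0.22 did not pass (adjusted p = 0.0901), and without animal 26 it was -0.69 (adjusted p = 0.0363). The order of the 16 means ran from 7.32 in Tac.Mtx.D14 and 6.94 in FR104.F to 6.29 in Bela.F and 6.06 in Bela.Siro.D30, with 7.18 in healthy controls, which ranked 2. Of the 15 steps between neighbours in that order, 1 was larger than the SDs beside it.

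The third probe set of IL12RB2, examined after its values had been seen, gave the largest difference among the probe sets of the 6 genes in NoRx.F against healthy controls. It read 10.05, 9.12, 10.18 and 9.45 in NoRx.F, against 4.71, 5.95 and 7.51 as lowest, median and highest of the healthy controls. Every NoRx.F array was above every healthy array, and also above every array of the other 14 groups. The rise was 3.71 ± 0.39, or 13.1-fold in signal (limma with each of 19872 probe sets tested on its own, adjusted p = 9.38e-12, 31.7% of probe sets called). In the 1 animal with arrays of both kinds, animal 53, the NoRx.F value was 4.00 above its own healthy value.

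This probe set was also higher than in healthy controls in Siro.F by 1.89 ± 0.38, in Bela.F by 2.26 ± 0.42, in Tac.Mtx.F by 1.71 ± 0.42 and in Tac.Mtx.D30 by 1.90 ± 0.50, with adjusted p of 0.000251, 6.48e-05, 0.00469 and 0.0276 and with 12.7%, 15.2%, 12.5% and 2.3% of probe sets called. The Tac.Mtx.D30 call was lost without either of its 2 animals, 19 (adjusted p = 0.53) or 20 (0.113), and that of Tac.Mtx.F without animal 19 (0.0543). In FR104.Siro.D14 it read 5.05, 5.12, 4.26 and 4.57 and fell by 1.27 ± 0.43 (adjusted p = 0.0329, 16.4% of probe sets called), which was lost without animal 27 or 28 (0.0805 and 0.0902) and with the 2 arrays of day 14 alone (-1.37, 0.142). The group means ran from 9.70 ± 0.50 in NoRx.F, 8.27 ± 0.37 in Bela.F and 7.90 ± 0.62 in Tac.Mtx.D30 down to 5.21 ± 0.88 in FR104.Siro.F and 4.75 ± 0.41 in FR104.Siro.D14, with 6.002 ± 0.64 in healthy controls (SD). The step from NoRx.F to Bela.F, the next in that order, was larger than the SD of either group.

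The 4 probe sets of IL12RB2 therefore gave unlike answers for the same RNA. In NoRx.F against healthy controls the next probe set changed by 0.16 ± 0.12 and the fourth by -0.08 ± 0.26, neither of them past the threshold (adjusted p = 0.312 and 0.865). The spread of 4.10 between the highest and lowest change among its probe sets was reached by 3 of the 4902 genes with more than 1 tested probe set, IL12RB2 included. In that comparison 155 of those 4902 genes, 3.16%, had 1 probe set called higher and another called lower. Probe sequences and positions were not used here, so which transcript of IL12RB2 each probe set reads was not tested.

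**Figure D2:**
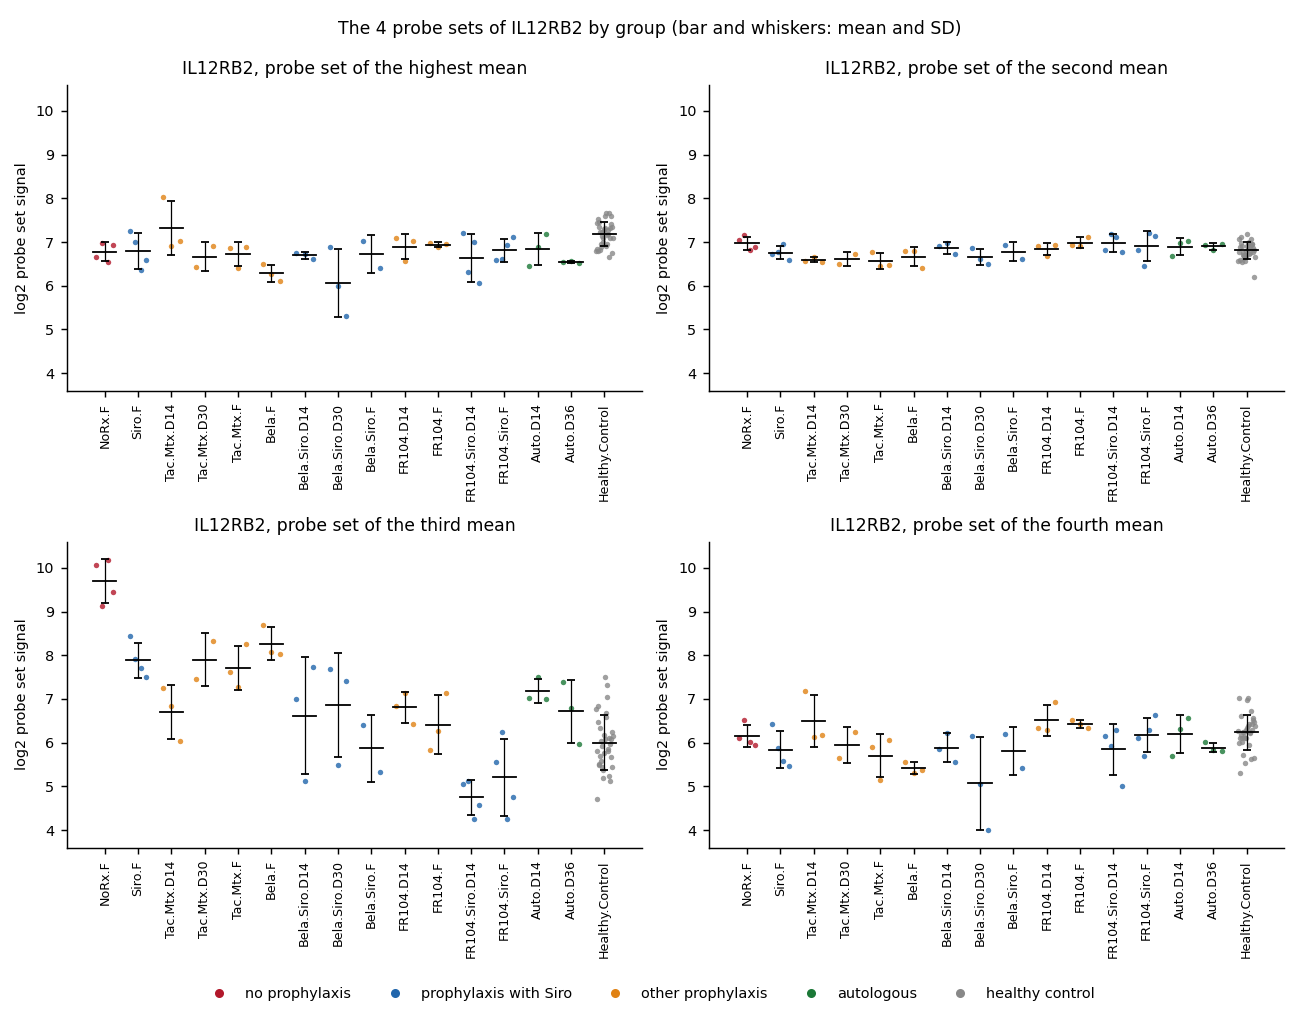
Log2 signal of the 4 probe sets of IL12RB2 on each array (points), by group, with mean and SD as bar and whiskers and the same vertical axis in every panel. On the third probe set the NoRx.F arrays lie from 9.12 to 10.18 and the healthy arrays from 4.71 to 7.51, a separation that the other 3 panels do not show.

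On the probe sets used, IL18RAP, the accessory chain of the IL-18 receptor, was the 1 of the 6 genes that rose in NoRx.F. The third probe set of IL12RB2, described above, rose there as well. IL18RAP read 7.71, 6.61, 7.47 and 7.23 in NoRx.F, against 5.01, 5.87 and 7.87 as lowest, median and highest of the healthy controls. All 4 NoRx.F arrays were above the healthy mean of 6.001 and none was above the highest healthy array. The rise was 1.26 ± 0.41 (adjusted p = 0.0109), and without animal 50 it was 1.11 with an adjusted p of 0.0511.

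The same gene rose in 3 prophylaxis groups. Siro.F read 7.53, 7.57, 6.92 and 7.39 and was higher by 1.35 ± 0.39 (adjusted p = 0.0116, 0.0533 without animal 18, and 0.176 within batch 2). Bela.F read 8.84, 7.49 and 7.75, with 1 array above every healthy control, and was higher by 2.03 ± 0.44, or 4.10-fold (adjusted p = 0.000474). Bela.Siro.D30 read 8.06, 6.47 and 7.76 and was higher by 1.44 ± 0.44 (adjusted p = 0.0326), which was lost without animal 38 (0.147) or animal 49 (0.229) and within batch 3 (0.0726).

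Of the group means of IL18RAP, Bela.F was highest at 8.03 ± 0.72, followed by Bela.Siro.D30 at 7.43 ± 0.85, Siro.F at 7.35 ± 0.30 and NoRx.F at 7.26 ± 0.48. The lowest were FR104.Siro.D14 at 5.69 ± 0.27 and Tac.Mtx.D14 at 5.90 ± 0.26, both below the 6.001 ± 0.67 of healthy controls. No step between neighbours in the order of the 16 means exceeded the SDs beside it.

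TBX21, which encodes the master regulator of Th1 cells, fell in 3 of the 5 groups that received Siro together with FR104 or Bela. The FR104.Siro groups came from the same animals, and the Bela.Siro groups likewise, so the 5 groups are not independent. TBX21 read 8.16, 8.71, 7.77 and 7.94 in FR104.Siro.F, against 8.55, 10.26 and 11.20 as lowest, median and highest of the healthy controls. Of the 4 arrays, 3 were below every healthy array. The fall was 1.95 ± 0.45 on the log2 scale, a 3.88-fold lower signal (adjusted p = 0.00223). FR104.Siro.D14 read 8.13, 9.31, 8.46 and 7.94, again with 3 arrays below every healthy array, and fell by 1.64 ± 0.45 (adjusted p = 0.00838). With its 2 arrays of day 14 alone the change was -1.81 and the adjusted p 0.0512, with fewer arrays in the fit.

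Bela.Siro.F, with 2 arrays at 8.97 and 7.62, fell in TBX21 by 1.80 ± 0.53 against healthy controls (adjusted p = 0.0435). Animal 42 decided this value, since without it the change was -1.12 with an adjusted p of 0.649, and without animal 38 it was -2.48 with an adjusted p of 0.0534. The call was also lost within batch 3 (adjusted p = 0.0983) and with no filter on dim genes (0.0502). Animal 42 was low at each of its 3 samples, with 7.43 on day 14, 8.16 on day 30 and 7.62 in the final sample, while animal 38 read 10.49, 10.29 and 8.97. In Bela.Siro.D30 TBX21 was at -0.95 ± 0.44 without passing (adjusted p = 0.194), and without animal 38 it was -1.53 (adjusted p = 0.0376).

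In groups without Siro, TBX21 was not called against healthy controls. NoRx.F read 10.32, 10.02, 10.47 and 10.78, within the healthy range, and its change was 0.30 ± 0.41 (adjusted p = 0.614). Bela.F averaged 10.11 ± 0.15, FR104.D14 10.10 ± 0.67, Tac.Mtx.D30 10.09 ± 0.96 and Tac.Mtx.F 9.98 ± 0.72, against 10.10 ± 0.62 in healthy controls (SD). FR104.F averaged 9.39 ± 1.02 and Tac.Mtx.D14 9.35 ± 0.22. All Tac.Mtx.D14 arrays were below the healthy mean, and the change of -0.75 ± 0.44 (SE) did not pass in limma (adjusted p = 0.489). The highest means were in the autologous groups, Auto.D36 at 11.03 ± 0.49 and Auto.D14 at 10.72 ± 0.73, with changes against healthy controls of 0.93 and 0.62 that did not pass (SE 0.49 each).

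In Siro.F, which received Siro alone, TBX21 was uneven. It read 8.75, 10.36, 8.38 and 9.38, and its change of -0.89 ± 0.39 against healthy controls had an adjusted p of 0.129. Animal 16 was the highest of the 4, and without it the change was -1.28 with an adjusted p of 0.0377. Animal 13 read 2.36 below its own healthy array, while animals 16 and 18 read 0.85 and 0.82 above theirs. No step in the order of the 16 means of TBX21 exceeded the SDs beside it.

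EOMES, which shares part of the targets of T-bet in cytotoxic T cells, rose under Siro alone and fell under Siro combined with FR104. In Siro.F it read 9.75, 9.83, 10.61 and 11.003, against 8.09, 9.23 and 10.51 in the healthy controls (lowest, median and highest). All 4 were above the healthy mean and 2 were above every healthy array. The rise was 1.07 ± 0.30 (adjusted p = 0.00836), and it was lost without animal 13 (adjusted p = 0.0612) or 18 (0.136). Within batch 1 the change was 0.36 (adjusted p = 0.539). Each of the 3 animals with its own healthy array was higher after transplantation, by 1.31 for animal 13, 1.13 for animal 16 and 2.14 for animal 18.

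Under FR104 with Siro, EOMES was below healthy controls. FR104.Siro.F read 8.44, 7.71, 8.12 and 8.08 and fell by 1.14 ± 0.34 (adjusted p = 0.0203). FR104.Siro.D14 read 7.84, 8.13, 8.63 and 8.51 and fell by 0.95 ± 0.34 (adjusted p = 0.0408). All 8 arrays, from the same 4 animals sampled in both groups, were below the healthy mean of 9.24. Both calls were close to the threshold, with an adjusted p of 0.0672 for FR104.Siro.F without animal 26 or 0.056 without animal 28, and for FR104.Siro.D14 of 0.123, 0.0561 and 0.104 without animal 26, 27 or 29. The FR104.Siro.D14 call was also lost with the 2 arrays of day 14 alone (-0.99, adjusted p = 0.165), with quantile normalization done again (-0.79, 0.113) and within batch 4 (0.0515), and that of FR104.Siro.F without the arrays of high spike-in signal (0.0508). With both probe sets averaged the changes were -0.52 and -0.76, and neither passed (adjusted p = 0.216 and 0.109). The second probe set of EOMES, which correlated with the one used at r = 0.84 over the 81 arrays, changed by -0.37 ± 0.28 and -0.08 ± 0.28 in these groups, neither past the threshold (adjusted p = 0.494 and 0.864), and rose in Siro.F by 0.76 ± 0.25 (adjusted p = 0.0316).

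The other groups of EOMES had means between 8.59 ± 0.78 in Bela.Siro.D30 and 9.91 ± 0.10 in Tac.Mtx.D30, and healthy controls were at 9.24 ± 0.54. NoRx.F read 8.23, 9.42, 8.68 and 9.02 and did not pass (-0.38 ± 0.31, adjusted p = 0.372). Its change was -0.65 within batch 1 (adjusted p = 0.0362). In Bela.Siro.D30 the change of -0.66 ± 0.34 (adjusted p = 0.24) was -1.11 without animal 38 (adjusted p = 0.048). No step in the order of the 16 means exceeded the SDs beside it.

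PRDM1, on the probe set used, had a range of 0.994 between its highest and lowest group mean and did not pass the test across groups. Its other 2 probe sets both did (adjusted p = 0.0291 and 0.0193). Every group mean was above the 9.36 ± 0.56 of healthy controls, and the change was positive in all 15 comparisons, which share those controls. Bela.F read 10.49, 10.09 and 10.48, against 8.05, 9.44 and 10.49 as lowest, median and highest in healthy controls. No array was above the highest healthy control, yet all 3 were above the healthy mean. The rise of 1.01 ± 0.33 passed (adjusted p = 0.0239), and was lost without animal 46 (0.121) or 47 (0.147). The other 2 probe sets rose there too, by 0.97 ± 0.31 and 0.73 ± 0.25 (adjusted p = 0.0244 and 0.0318). Auto.D36 and Bela.Siro.D30 were higher by 0.91 ± 0.37 and 0.90 ± 0.33 without passing (adjusted p = 0.0755 and 0.082). The 3 Auto.D36 animals were above their own healthy arrays by 0.12, 0.29 and 0.69, less than the difference from all healthy controls. With the 3 probe sets averaged, PRDM1 in Auto.D36 was at 0.85 and passed (adjusted p = 0.0373), and it also passed without the batch term (0.90, adjusted p = 0.022).

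IFNG, the effector cytokine itself, was dim on this array, with a mean of 5.71 over all arrays. Bela.F read 8.56, 6.09 and 6.96 and Tac.Mtx.F read 5.05, 7.86 and 8.48, against 3.73, 5.26 and 7.14 as lowest, median and highest in healthy controls. In Bela.F 1 array and in Tac.Mtx.F 2 arrays were above every healthy control, while animal 21 of Tac.Mtx.F was within the healthy range. The rises were 1.95 ± 0.53 in Bela.F (adjusted p = 0.00579) and 1.88 ± 0.53 in Tac.Mtx.F (adjusted p = 0.0115). Without animal 47 the value of Bela.F was 1.27 (adjusted p = 0.23), and that of Tac.Mtx.F was 1.20 without animal 19 and 1.51 without animal 20 (adjusted p = 0.208 and 0.162).

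Siro.F was as uneven in IFNG, at 5.65, 7.37, 5.09 and 8.42. Animals 16 and 18 were above every healthy control and animal 13 was below the healthy mean of 5.27. The rise of 1.35 ± 0.47 (adjusted p = 0.0408) was lost without animal 16 (adjusted p = 0.179) or 18 (0.491, with a change of 0.68), and within batch 1 or 2 (1.09 and 1.52, adjusted p = 0.165 and 0.176). NoRx.F read 6.61, 6.33, 5.18 and 6.82, and its change of 0.96 ± 0.49 did not pass (adjusted p = 0.123).

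At the other end of the order, IFNG in FR104.Siro.D14 read 3.98, 4.92, 3.89 and 4.12, all below the healthy mean and none below the lowest healthy array. All but the 4.92 were below 4.65, the value of the filter on dim signals. The mean of 4.23 ± 0.47 was the lowest of the 16, and the step to the next, 5.25 ± 0.41 in Tac.Mtx.D14, was the 1 step of 15 larger than the SDs beside it. Against healthy controls the change was -1.04 ± 0.53 (adjusted p = 0.158). This group is also the one in which all 4 arrays had high spike-in signal, and the part of that in its low values was not tested.

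**Figure D3:**
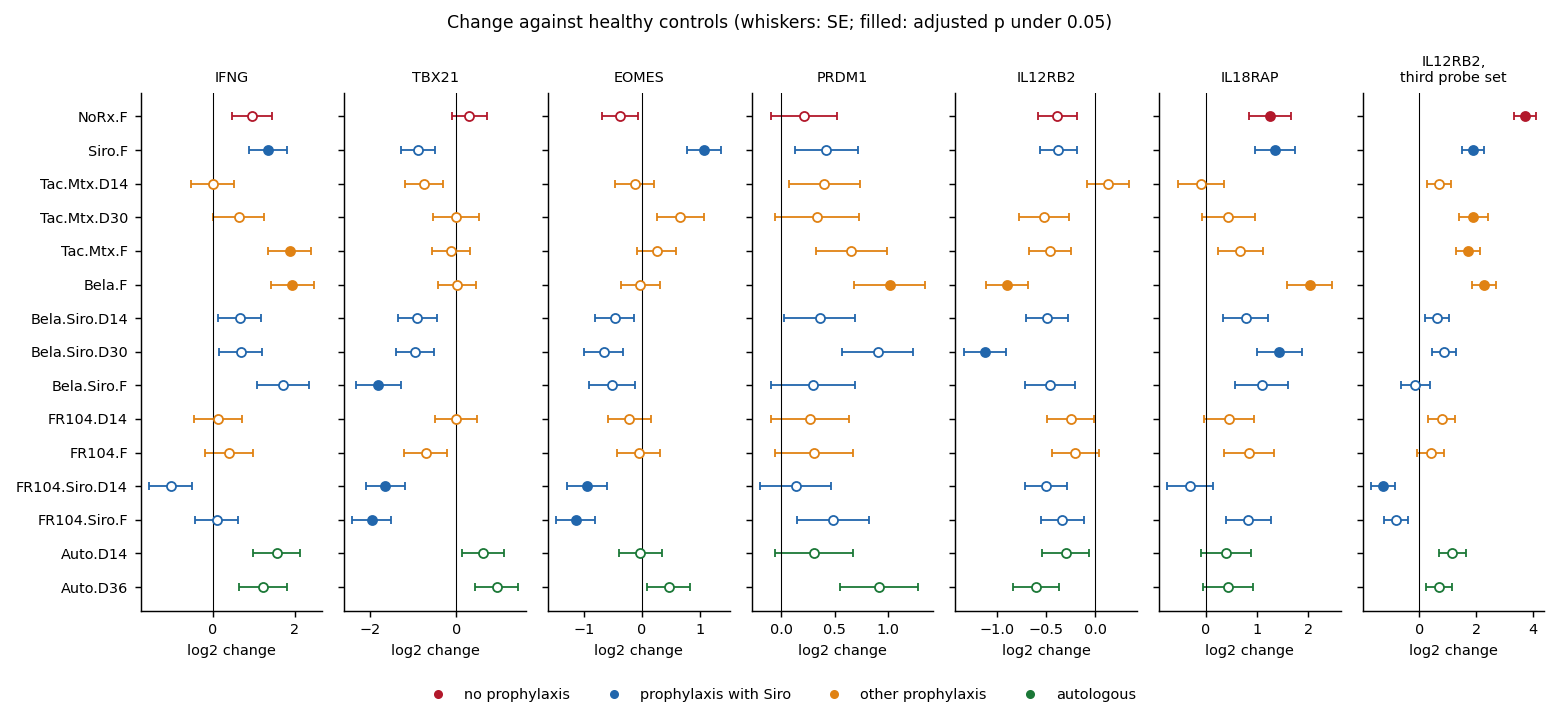
Log2 change of each gene, and of the third probe set of IL12RB2, in the 15 transplant groups against healthy controls, with SE as whiskers and filled symbols for an adjusted p under 0.05. IL18RAP and IFNG are filled to the right of 0 only, TBX21 to the left only, and EOMES on both sides.

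Some markers of other blood cells were called in several of these groups. The NK list, whose cells also express TBX21, EOMES, IFNG and IL18RAP, had 7 of 10 genes with a probe set named by the gene table. In NoRx.F 0 of these rose and 2 fell, with KLRF1 at -2.72 ± 0.72, where 35.4% of all genes were called. In FR104.F, FR104.Siro.D14 and FR104.Siro.F 1 of 7 fell (10.7%, 18.2% and 10.1% of all genes called), and in Bela.F 1 of 7 rose (17.6%). The summed NK signal (log2 of the summed linear values) ranged from 11.48 to 11.87 in FR104.Siro.F and from 11.43 to 12.45 in FR104.Siro.D14, against 11.72 to 13.57 in healthy controls. It was 11.22 to 12.75 in NoRx.F, 11.38 to 12.95 in Siro.F and 11.91 to 12.81 in Bela.F. No marker of this list was at 0 on an array of log2 signals, and the part of NK cells in the results on the 6 genes was not tested.

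Monocyte markers, 7 of 8 with a probe set named by the gene table, were higher in many transplant groups. In NoRx.F, Bela.F, Bela.Siro.D14 and Bela.Siro.D30 4 of 7 rose (35.4%, 17.6%, 2.52% and 7.17% of all genes called). In Siro.F, Tac.Mtx.F, FR104.Siro.D14 and FR104.Siro.F 2 of 7 did (14.6%, 14.1%, 18.2% and 10.1%). The calcium-binding proteins of myeloid cells S100A9 and S100A8 rose in NoRx.F by 4.91 ± 0.83 and 4.64 ± 0.79. The summed signal was 10.24 to 14.46 in NoRx.F and 12.89 to 14.32 in Bela.F, against 7.67 to 11.61 in healthy controls. Of 7 B and plasma cell markers with a probe set, 6 of which were tested, 2 rose in NoRx.F, in Siro.F and in Bela.F (35.4%, 14.6% and 17.6% of all genes called). The share of these cells in the changes of the 6 genes was not tested.

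The balance of CD8 and CD4 T cells could not be read from these arrays directly, and the transcripts of their coreceptors, picked after the values were seen, were compared instead. CD8A and CD8B rose in NoRx.F against healthy controls, by 0.75 ± 0.16 and 1.13 ± 0.27, while CD4 was at -0.22 ± 0.18. In FR104.Siro.F CD8A and CD8B changed by 0.04 ± 0.17 and 0.01 ± 0.30, neither past the threshold, and CD4 rose by 0.63 ± 0.20. In healthy controls TBX21 correlated with CD8A at r = 0.63, with CD8B at r = -0.23 and with CD4 at r = -0.46 over 34 arrays, a description of transcripts on the same arrays.

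Each prophylaxis was then set against no prophylaxis in the final samples of allogeneic recipients. The days of these samples are not given and only Siro.F shares a batch with NoRx.F, so time and batch cannot be told apart from prophylaxis. TBX21 fell under FR104.Siro and Bela.Siro, and EOMES rose under Siro alone. FR104.Siro.F read 7.77 to 8.71 in TBX21, against 10.02 to 10.78 in NoRx.F, without overlap. The fall was 2.26 ± 0.61, a 4.78-fold lower signal (adjusted p = 0.00471), and this gene was the 1 of 6 called, where 19.6% of all genes were.

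In Bela.Siro.F TBX21 was also the 1 gene called (7.75% of all genes called), with both arrays, 8.97 and 7.62, below the NoRx.F arrays. The fall of 2.11 ± 0.67 (adjusted p = 0.0367) was lost without animal 42 (-1.43, adjusted p = 0.393) and without NoRx.F animal 50, 52 or 53 (adjusted p = 0.054, 0.0642 and 0.0766). Siro.F overlapped NoRx.F in TBX21 through animal 16, with a change of -1.19 ± 0.50 (adjusted p = 0.106, and 0.0436 without animal 16).

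EOMES in Siro.F, from 9.75 to 11.003, was above every NoRx.F array, 8.23 to 9.42. The rise was 1.45 ± 0.38, or 2.73-fold (adjusted p = 0.0056), and EOMES was the 1 of 6 called, against 12.1% of all genes. Within batch 1, where 2 Siro.F and 3 NoRx.F arrays were run, the change was 1.02, and within batch 2, with 2 and 1 arrays, it was 1.79. On the second probe set it was 0.68 ± 0.31 (adjusted p = 0.174).

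No member was called in limma in Tac.Mtx.F, Bela.F or FR104.F against NoRx.F (6.95%, 1.86% and 7.67% of all genes called), and none had an unadjusted p under 0.05. In Bela.F the largest change among the 6 was IFNG at 0.99 ± 0.72, and in FR104.F it was TBX21 at -1.02 ± 0.64. IL18RAP, PRDM1, IFNG and the probe set used for IL12RB2 were not called in any of the 6 comparisons with NoRx.F.

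The third probe set of IL12RB2 was lower than NoRx.F under every prophylaxis, and 5 of the 6 falls passed. This probe set was examined after its values, highest in NoRx.F, had been seen. Its falls against those same arrays depend on that choice and are a description. Against the NoRx.F values from 9.12 to 10.18, no array of any prophylaxis was above 8.70, so the groups did not overlap in any of the 6 comparisons. These comparisons share the same NoRx.F arrays, and the share of all probe sets without overlap between groups this small was not counted. The changes were -4.52 ± 0.58 in FR104.Siro.F (23.0-fold lower, adjusted p = 9.39e-08), -3.84 ± 0.64 in Bela.Siro.F (5.14e-05) and -3.32 ± 0.61 in FR104.F (0.000502). They were -2.01 ± 0.58 in Tac.Mtx.F (adjusted p = 0.0259) and -1.82 ± 0.47 in Siro.F (0.00743). In Bela.F the change of -1.45 ± 0.58 did not pass (adjusted p = 0.262). Of all probe sets 15.9%, 5.83%, 5.38%, 5.16%, 9.64% and 1.19% were called in these comparisons, in the same order. The Tac.Mtx.F call was lost without Tac.Mtx.F animal 20 or 21 or NoRx.F animal 50 or 52 (adjusted p from 0.0599 to 0.0976).

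**Figure D4:**
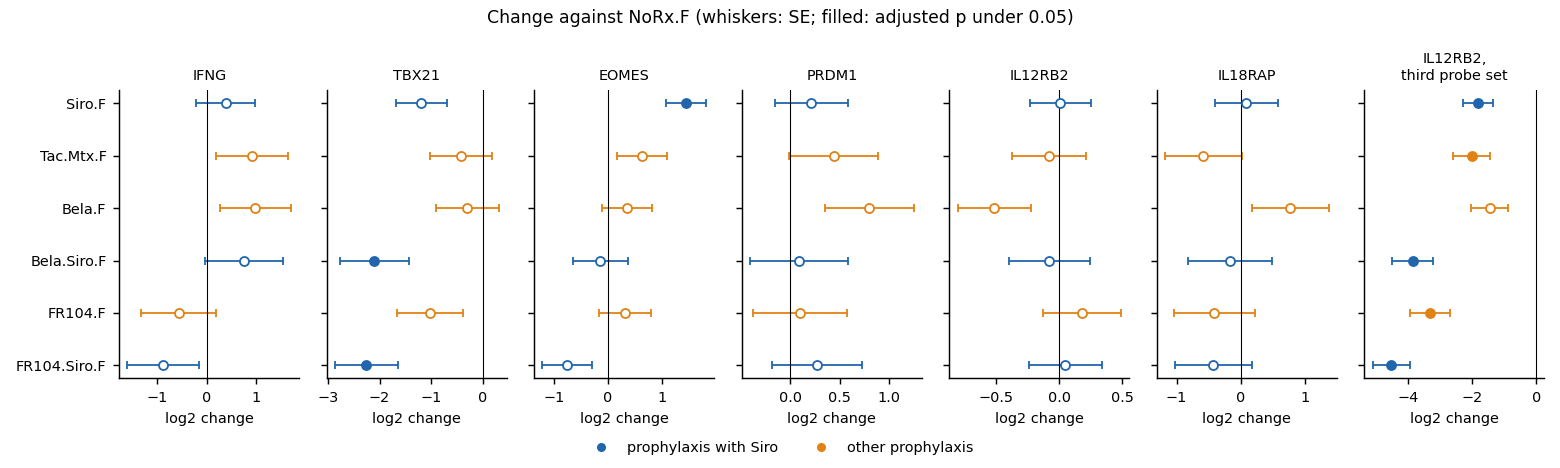
Log2 change of each gene, and of the third probe set of IL12RB2, in the final samples of the 6 prophylaxis groups against NoRx.F, with SE as whiskers and filled symbols for an adjusted p under 0.05. TBX21 is filled for Bela.Siro.F and FR104.Siro.F, EOMES for Siro.F, and the third probe set of IL12RB2 for every group but Bela.F.

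NoRx.F was compared with Auto.D14 to set allogeneic against autologous transplantation. None of the 6 genes was called in limma (3.33% of all genes called), and none had an unadjusted p under 0.05. IFNG read 5.18 to 6.82 in NoRx.F, against 6.32 to 7.48 in Auto.D14, with a change of -0.60 ± 0.76. The third probe set of IL12RB2 read 9.12 to 10.18 in NoRx.F, against 7.005 to 7.51 in Auto.D14, without overlap, and rose by 2.55 ± 0.61 (adjusted p = 0.0117, 2.47% of probe sets called). This probe set was examined after its values had been seen, and its rise here depends on that choice. The days of the final samples are not given, so the groups may differ in time.

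The prophylaxis groups labelled D14 were also set against Auto.D14. In FR104.Siro.D14, whose 4 arrays include days 22 and 34, 2 of the 6 fell, where 15.3% of all genes were called. IFNG at 3.89 to 4.92 was below the Auto.D14 values of 6.32 to 7.48 and fell by 2.60 ± 0.63 (adjusted p = 0.00359). All of these FR104.Siro.D14 values but that of animal 29 were below 4.65, the value of the filter on dim signals. All 4 arrays of FR104.Siro.D14, and animal 202 of Auto.D14, had high spike-in signal, and the part of that in this comparison was not tested. TBX21 at 7.94 to 9.31 was below 9.89 to 11.25 in Auto.D14 and fell by 2.27 ± 0.53 (adjusted p = 0.00248). The third probe set of IL12RB2 fell by 2.44 ± 0.51 (adjusted p = 0.00103), where 13.3% of probe sets were called. In Tac.Mtx.D14, Bela.Siro.D14 and FR104.D14 no member was called (0.0169%, 0.0932% and 0.246% of all genes called) and 1 in each had an unadjusted p under 0.05. IFNG was lower than in Auto.D14 in every array of all 4 groups, with changes from -0.91 to -2.60. It was called in FR104.Siro.D14 alone, with a limma adjusted p of 0.579, 0.773 and 0.399 in Tac.Mtx.D14, Bela.Siro.D14 and FR104.D14. These comparisons share the same Auto.D14 arrays, and the share of all genes so separated was not counted.

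Adding Siro to FR104 or Bela was tested directly, and no member was called. In FR104.Siro.F against FR104.F the largest change was TBX21 at -1.24 ± 0.53 (adjusted p = 0.62, 0.00847% of all genes called, 2 members with an unadjusted p under 0.05). TBX21 read 7.77 to 8.71 in FR104.Siro.F, against 8.25, 9.68 and 10.23 in FR104.F, overlapping through animal 22. In Bela.Siro.F against Bela.F TBX21 was at -1.81 ± 0.63 (adjusted p = 0.22, 0.457% of all genes called), with both Bela.Siro.F arrays below all 3 of Bela.F.

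In the samples labelled D14, which for FR104.Siro include days 22 and 34, TBX21 in FR104.Siro.D14, 7.94 to 9.31, was below every FR104.D14 array, 9.55 to 10.84. The change was -1.64 ± 0.53 with an adjusted p of 0.0559 (4.46% of all genes called). With arrays of the same animal treated as a block it was -1.68 and passed (adjusted p = 0.0419), as it did within batch 4 (0.0489) and without the batch term (0.0446). With the 2 arrays of day 14 alone it was -1.80 (adjusted p = 0.155). IFNG, EOMES and IL18RAP were also lower in FR104.Siro.D14, without passing (adjusted p from 0.274 to 0.406). The third probe set of IL12RB2 fell by 2.06 ± 0.51 (adjusted p = 0.0113, 4.94% of probe sets called, 0.0928 without FR104.D14 animal 22 and 0.0779 with day 14 arrays alone), and by 2.40 ± 0.60 in Bela.Siro.F against Bela.F (adjusted p = 0.0493, 0.398% of probe sets called), the second of which was lost with the animal block (-2.27, adjusted p = 0.0692) and without animal 38, 42, 46 or 47 (adjusted p = 0.0785, 0.483, 0.109 and 0.317). The effect of adding Siro to FR104 was not shown to differ from that of adding it to Bela, with a difference of 0.57 ± 0.82 for TBX21 and an adjusted p of 0.999 for each member (0.0254% of all genes called, 0 members at an unadjusted p under 0.05).

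FR104 and Bela were set against each other with and without Siro. No member was called in FR104.F against Bela.F (0.0339% of all genes called, 1 member with an unadjusted p under 0.05) or in FR104.Siro.F against Bela.Siro.F (0.0508%, 0 members). IL18RAP read 6.26 to 7.23 in FR104.F, against 7.49 to 8.84 in Bela.F, without overlap, and the change was -1.19 ± 0.66 (adjusted p = 0.58). IFNG read 5.21 to 5.90 in FR104.F, against 6.09 to 8.56 in Bela.F, also without overlap, with a change of -1.55 ± 0.79 (adjusted p = 0.544). The share of all genes without overlap between groups this small was not counted.

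The arrays of an animal could be followed over time, but the fit compared the groups without pairing them. In that fit no member was called between a later and an earlier sample, and the animal as a random block did not change this. Of all genes limma called 0.974% in Auto.D36 against Auto.D14, 0.00847% and 0.0508% in Bela.Siro.D30 and Bela.Siro.F against Bela.Siro.D14, 3.1% in FR104.Siro.F against FR104.Siro.D14, and 0% in the comparisons within Tac.Mtx and FR104. At an unadjusted p under 0.05 these held 0, 1, 0 and 1 members, then 1 and 2 members in Tac.Mtx.D30 and Tac.Mtx.F and 0 in FR104. IFNG in Tac.Mtx was higher in the final sample than on day 14 in 3 of 3 animals, by 0.15, 2.16 and 3.35, yet the change of 1.88 ± 0.68 did not pass among all genes. In FR104.Siro, IFNG and IL18RAP were higher in the final sample in 3 of 4 animals each, by up to 2.73 and 2.28, and animal 29 went the other way in both (-0.68 and -0.45). For IL18RAP the change was 1.14 ± 0.49 (adjusted p = 0.165, and 0.0312 without animal 29).

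TBX21 was lower in the final sample than on day 14 in 3 of 3 FR104 animals, by 0.22 to 1.30, and EOMES was lower in 4 of 4 FR104.Siro animals, by 0.01 to 0.55. PRDM1 was higher on day 36 than on day 14 in 3 of 3 autologous animals, by 0.16 to 1.02. None of these passed. The change over time was not shown to differ between FR104.Siro and FR104 or between Bela.Siro and Tac.Mtx (0% and 0.0339% of all genes called, adjusted p of at least 0.992 for each member and 0 members at an unadjusted p under 0.05).

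**Figure D5:**
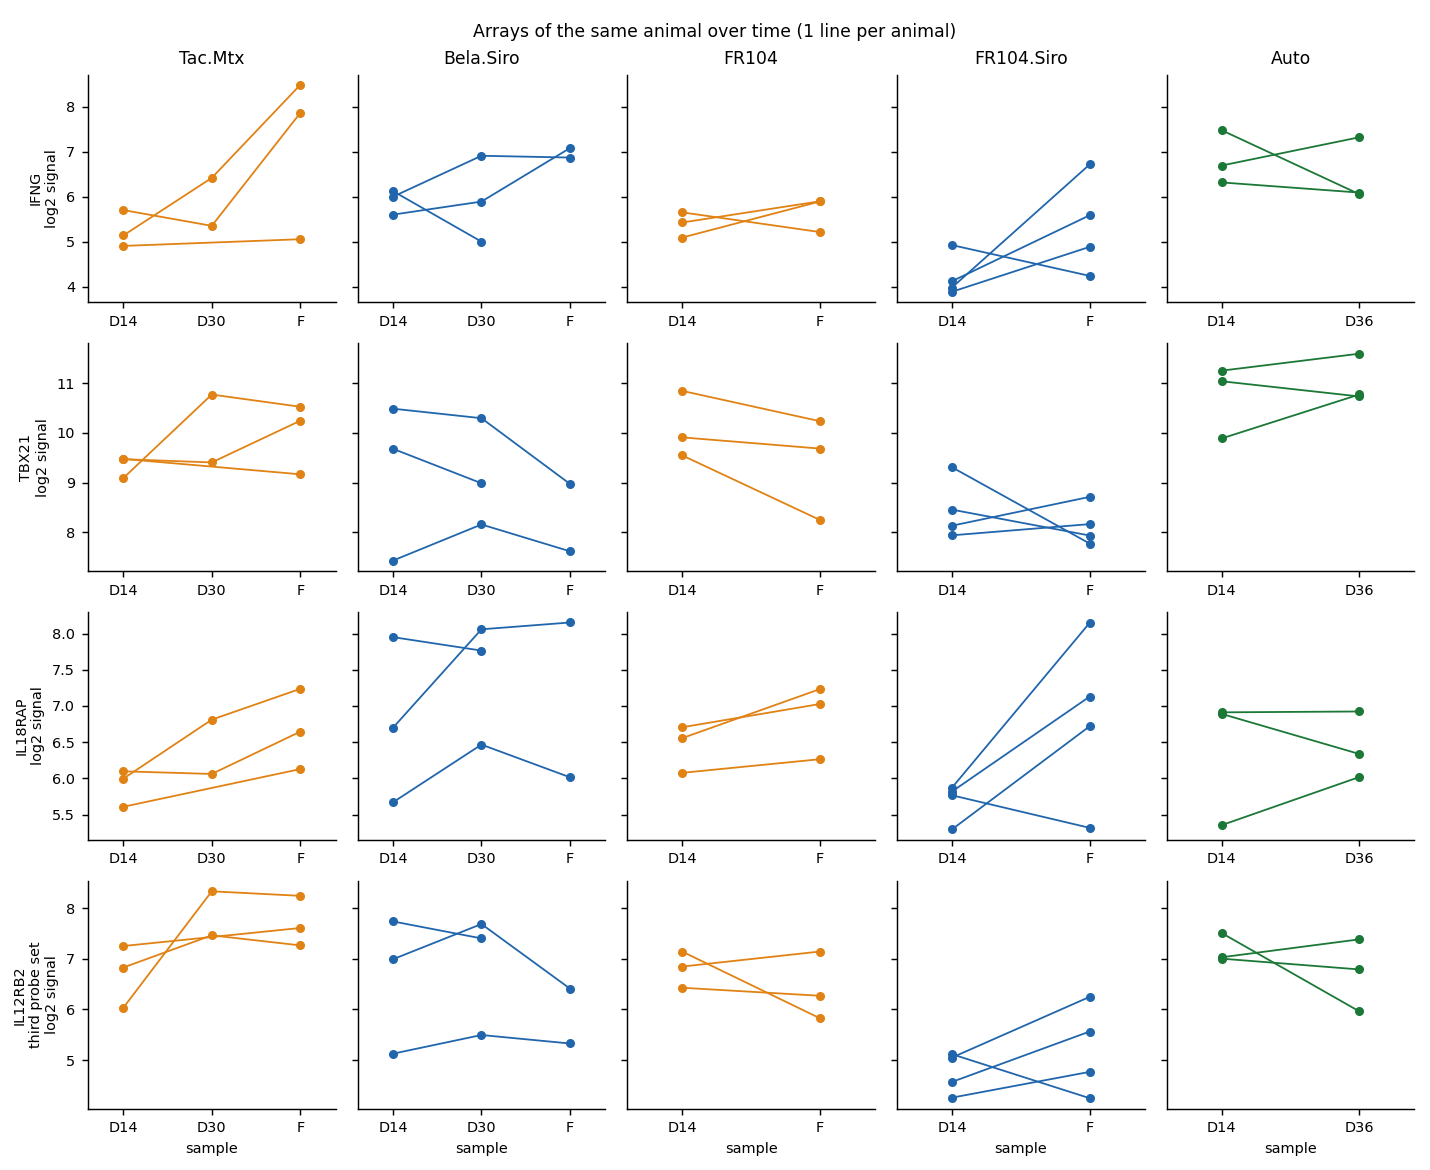
Log2 signal of IFNG, TBX21, IL18RAP and the third probe set of IL12RB2 in successive samples of the same animal, 1 line per animal, by treatment arm. The sample labelled D14 of FR104.Siro holds days 14, 22 and 34, and in that arm 3 of 4 lines of IFNG and of IL18RAP go up and that of animal 29 goes down.

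Among the 34 healthy controls, 3 of the 15 pairs of members were correlated after adjustment over the 15 pairs (permutation test, 2-sided, 100000 resamples). IFNG and PRDM1 had r = 0.52 (p = 0.00165, adjusted p = 0.0247) and rho = 0.46 (p = 0.00674, adjusted p = 0.045), with r = 0.43 without the 2 arrays farthest from the IFNG median. Within batches 2, 3 and 4 the r was 0.78, 0.13 and 0.79, so the relation was weak in the largest batch. TBX21 and PRDM1 had r = 0.46 (p = 0.00636, adjusted p = 0.0409) and rho = 0.48 (p = 0.0044), with r = 0.50 without the 2 farthest arrays and 0.40, 0.56 and 0.55 within the batches.

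TBX21 and the probe set used for IL12RB2 ran in opposite directions, with r = -0.45 (permutation p = 0.00819, adjusted p = 0.0409) and rho = -0.44 (p = 0.009). Without the 2 farthest arrays r was -0.32, and within the batches it was -0.42, -0.45 and -0.59. Batch 1 held 5 healthy arrays, too few for a value. The other probe sets of IL12RB2, which disagreed with the one used, were not each set against TBX21 in healthy controls. TBX21 and EOMES had r = 0.20 (permutation p = 0.249, adjusted p = 0.374), which did not pass. No pair passed within a single batch after adjustment.

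The pathway around the 6 genes was read from lists, which were drawn up with earlier results of these data known. Of 15 genes for cytokine receptors and their signalling, which include those of IL-2, IL-21 and IL-27 beside IL-12, IL-18 and interferon gamma, 5 had a probe set named by the gene table and were tested. In NoRx.F against healthy controls 3 of these rose and 1 fell, where 35.4% of all genes were called. IL2RA, the inducible chain of the IL-2 receptor, rose by 1.20 ± 0.25, IL12RB1, the partner chain of IL12RB2, by 0.61 ± 0.14, and the kinase JAK2 by 0.60 ± 0.18. IL27RA, the IL-27 receptor chain, fell by 0.57 ± 0.15. The median change of these 5 genes was 0.60, beside 0.05 for all genes tested and 0.26 for the 6 members.

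Of 15 tested effector genes, 9 rose and 0 fell in NoRx.F, with a median change of 0.93. The share of all genes called there, 35.4%, stands beside the counts of both lists given here. The inhibitory receptor HAVCR2 (TIM-3) rose by 1.58 ± 0.22, the chemokine receptor CXCR3, a known target of T-bet, by 1.49 ± 0.22, the cytotoxic protease GZMB by 1.64 ± 0.41 and the surface receptor SLAMF7 by 1.57 ± 0.43. Of 7 tested interferon gamma response genes 4 rose, among them the enzyme IDO1 by 1.89 ± 0.47 and the GTPase genes GBP2 and GBP1 by 1.25 ± 0.35 and 1.17 ± 0.32. These genes rose in the group in which TBX21, EOMES and IFNG themselves were not called.

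Of 11 partner transcription factors 4 rose and 2 fell in NoRx.F, beside the same 35.4% of all genes called. IRF8 rose by 2.52 ± 0.29, BATF by 1.51 ± 0.20 and the homeobox gene HOPX by 1.14 ± 0.35, and ZEB2, which acts with T-bet in terminal effector cells, fell by 1.73 ± 0.54. Of 7 factors of resting or memory T cells, listed as opposing, 1 rose and 3 fell, beside that same share. TCF7 (TCF-1) fell by 1.64 ± 0.18, KLF2 by 0.85 ± 0.12 and FOXO1 by 0.63 ± 0.19, and ID3 rose by 0.76 ± 0.30.

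In FR104.Siro.F against NoRx.F, where 19.6% of all genes were called, 7 of 15 effector genes fell and 0 rose. Their median change was -1.30, beside -0.08 for all genes and -0.59 for the 6 members. The changes were -3.86 ± 0.64 for SLAMF7, -3.01 ± 0.61 for GZMB, -2.69 ± 0.50 for CST7, an inhibitor of lysosomal proteases in cytotoxic cells, and -2.02 ± 0.32 for CXCR3. Of the partner factors 3 fell, with changes of -2.79 ± 0.43 for IRF8, -2.10 ± 0.52 for HOPX and -0.93 ± 0.30 for BATF. Of the opposing factors TCF7 rose by 1.56 ± 0.26 and SATB1 by 1.28 ± 0.37, and ID3 fell by 1.20 ± 0.44. CD8A and CD8B fell, with changes of -0.70 ± 0.24 and -1.12 ± 0.40, and CD4 rose by 0.84 ± 0.27.

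In the other prophylaxis groups the number of effector genes that fell against NoRx.F was 7 of 15 in Bela.Siro.F (median change -1.49, 7.75% of all genes called), 5 in FR104.F (-0.97, 7.67%), 2 in Siro.F (-0.74, 12.1%), 1 in Tac.Mtx.F (-0.35, 6.95%) and 0 in Bela.F (-0.12, 1.86%). At an unadjusted p under 0.05 these groups held 7, 7, 8, 2 and 3 of the 15, and FR104.Siro.F held 8, so the order of the groups depends on the threshold, and a difference between them was not tested. TCF7 rose in all 6, by 1.30 ± 0.26 in Bela.F to 1.56 ± 0.26 in FR104.Siro.F. Of the 7 interferon gamma response genes 0 were called by limma against NoRx.F in any of the 6 groups, with 1 gene at an unadjusted p under 0.05 in Tac.Mtx.F, 1 in Bela.Siro.F and 0 in the others. IL27RA rose in Siro.F by 0.84 ± 0.18, the 1 receptor gene called in these comparisons.

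Genes whose 16 group means were most like those of each member were picked by Pearson's r over the 16 means, which share batches and arrays. For TBX21 they were GAB3 (r = 0.94), KLRK1 (0.94) and MIA2 (0.94). KLRK1 encodes the activating receptor NKG2D of NK and CD8 T cells. For EOMES they were RABEP1 (0.90), ST3GAL2 (0.87) and RASSF2 (0.85), and for IFNG ASB7 (0.93), CGAS (0.85) and SEPHS2 (0.85). For IL18RAP they were COPRS (0.89), ST3GAL5 (0.88) and NIM1K (0.87).

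PRDM1 and the probe set used for IL12RB2 had looser likenesses, KCTD5 (0.82), EFL1 (0.75) and SETBP1 (0.74) for PRDM1 and SNX16 (0.80), ZNF195 (0.80) and CCDC174 (0.79) for IL12RB2. The third probe set of IL12RB2 was closest to DEF6 (0.97), PDLIM2 (0.95) and CCDC102A (0.95). Among the members, the group means of IFNG and IL18RAP had r = 0.65, those of TBX21 and EOMES r = 0.57, those of TBX21 and IL18RAP r = -0.03, and those of PRDM1 and the probe set used for IL12RB2 r = -0.71. With the group means of TBX21, the probe set used for IL12RB2 had r = 0.008 and the third probe set r = 0.61.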

How the data were processed

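T cells sorted on CD3 from rhesus macaque blood were measured on 81 Affymetrix arrays, and groups, animals, days and the 4 batches came from the labels. The authors deposited log2 signals per probe set, which, per the submitters' processing notes, were made with RMA and affy, with no versions given. Among healthy controls, comparing the batches by F test left 62.1% of genes with p above 0.95, so the values appear to carry a batch adjustment made before deposit, by a method not given in the sources used here, and the spread may be understated.

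Of 52865 probe sets, 24969 had 1 gene in the array's gene table, 361 several and 27535 none. The probe set with the highest mean over the arrays was kept for each gene. Genes reaching 4.65, the 40th percentile of the table, on 2 or more arrays were tested with limma 3.58.1 in R 4.3.3, with group and batch as terms over all arrays (62 residual degrees of freedom), eBayes with a trend, and Benjamini-Hochberg adjustment over 11806 genes within each of 38 comparisons and 3 differences between them. Fitted changes include the batch term and can differ from differences of raw means. Calls were made at an adjusted p under 0.05, and all tests were 2-sided. The fit was tested on simulated data.

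Members, lists and tests were chosen with earlier results of these data known. Besides the members, for each list up to 4 genes of lowest adjusted p in a main comparison and the 3 genes most like each member were named, and part of these is printed. Nothing in the labels says how animals were assigned to arms. Arrays of 1 animal are paired: deviations of later and earlier samples of an animal correlated at 0.08 to 0.66, and in 20 of 20 cases the highest was with the same animal, while transplant and healthy arrays of an animal correlated at -0.19 to 0.33 (3 of 17). The animal was used as a random block as an alternative (within-animal correlation 0.19). Other alternatives were no batch term, no filter, averaging a gene's probe sets, quantile normalization done again, no trend, single batches and leaving out each array, and, added after the data were seen, each probe set on its own, the third probe set of IL12RB2, leaving out arrays of high spike-in signal, and day 14 arrays alone. No genome or probe sequences were used here.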

Additional observations from a re-analysis of the deposited data

How the results depend on the processing

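With a gene's probe sets averaged, IL12RB2 changed direction in NoRx.F against healthy controls (0.85), in FR104.Siro.F and Siro.F against NoRx.F (-1.13 and -0.58) and in Bela.F against healthy controls (0.091), and became called in Bela.Siro.F and Tac.Mtx.F against NoRx.F (-1.13 and -0.74) and in FR104.Siro.D14 against healthy controls (-0.49), FR104.D14 (-0.71) and Auto.D14 (-0.73), while its call in Bela.Siro.D30 was lost (-0.41); the mean includes the third probe set. PRDM1 then varied across groups (F = 2.19), and 1 pair of members, not 3, was correlated in healthy controls; within batches 2, 3 and 4 it was 0 pairs, with fewer arrays. Within batch 1 EOMES in NoRx.F against healthy controls passed (-0.65). Within batch 2, with 1 NoRx.F array, EOMES and the third probe set in Siro.F against NoRx.F (1.79 and -1.85) and IL18RAP in NoRx.F against healthy controls (1.16) did not.

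Leaving out 1 array at a time, the third probe set in Tac.Mtx.F against NoRx.F ranged from -2.28 to -1.79, IL18RAP in NoRx.F from 1.11 to 1.46, and TBX21 against NoRx.F from -2.78 to -1.43 in Bela.Siro.F and from -1.65 to -0.92 in Siro.F. Numbers of genes called against NoRx.F ranged from 86 to 454 (main value 220) in Bela.F, 316 to 1140 (915) in Bela.Siro.F, 294 to 1296 (906) in FR104.F, 845 to 1681 (1425) in Siro.F and 432 to 1180 (820) in Tac.Mtx.F, and for NoRx.F against Auto.D14 from 175 to 790 (393).

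Without the batch term these counts were 711 in Bela.F, 1629 in Bela.Siro.F, 2181 in FR104.F, 3749 in FR104.Siro.F (main value 2319), 1793 in Tac.Mtx.F and 1376 for NoRx.F against Auto.D14, and the cause was not tested. With the mean of probe sets they were 85 in Bela.F and 235 for NoRx.F against Auto.D14. Within batch 2 they were 4 in Siro.F and 815 for NoRx.F against healthy controls (4181). With the replicate block on animal the count for NoRx.F against Auto.D14 was 696, and among the results on members the block changed no call but the 2 given beside their results, TBX21 in FR104.Siro.D14 against FR104.D14 and the third probe set of IL12RB2 in Bela.Siro.F against Bela.F. TBX21 in FR104.Siro.F passed under every alternative run, with changes from -2.14 to -1.83 against healthy controls and from -2.45 to -2.09 against NoRx.F.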
